A study of Mus musculus with 4 samples.

Results

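The windows of 9 genes of the BMP pathway held 33 of the 20579 Pax7 peaks mapped by ChIP-seq in mouse muscle progenitors. The genes were the ligands Bmp2, Bmp4, Bmp5, Bmp6 and Bmp7, the secreted antagonists Nog and Grem1, the type I receptor Bmpr1a and the inhibitory Smad gene Smad6. A peak was assigned to a gene when its summit, the position of highest ChIP signal within the peak, lay between 100 kb before the start and 100 kb after the end of the gene in the GENCODE vM1 annotation of the mm9 genome. No peak fell into more than 1 of the 9 windows. The rule for peaks uses no measured value, but the genes themselves were picked with earlier results of these data known.

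The cells were iPax7 progenitors, made from mouse embryonic stem cells in which doxycycline switches on a single copy of a Pax7 cDNA from a tetracycline-responsive promoter placed next to Hprt. Embryoid bodies received 1 µg/ml doxycycline from day 3, cells positive for PDGFRα and negative for FLK1 were sorted on day 5, and cultures were harvested on day 9 after 6 days of doxycycline. There were 2 Pax7 ChIP libraries, made with an antibody to Pax7, and 2 Input libraries, all of them from doxycycline-treated cells of this 1 engineered line. The authors pooled the replicates before calling peaks, so that each peak has 1 fold enrichment (ChIP over local background at the summit), 1 q-value and no replicate error, and the depth of the libraries is not in the peak list. An uninduced culture was not analysed here, expression was not measured in these libraries, and marker genes could not be checked from a peak list.

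Bone morphogenetic proteins (BMPs) are secreted dimers of the TGF-β superfamily. They bring together type I and type II serine/threonine kinase receptors, and the activated type I receptor phosphorylates Smad1, Smad5 and Smad9, which enter the nucleus with Smad4. Noggin and Gremlin bind the ligands outside the cell and keep them from their receptors, whereas Smad6 acts inside the cell against the receptor-activated Smads. In the embryo, BMP from the lateral plate and the surface ectoderm restrains differentiation of somitic muscle precursors, and antagonists made near the somite relieve this restraint. Pax7 is a paired-box and homeobox transcription factor of muscle progenitors and satellite cells, and its paired domain and its homeodomain each contact DNA.

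The sequences under the summits are shown first, for the peaks with a Pax motif and for the strongest peak at each gene. Each is the mm9 plus strand over 50 bp on either side of a summit, except at Rbm38, where 30 bases around the motif are shown because the summit lies in an exon. A set of 3 Pax motifs was searched on both strands: the paired-box core GTCACG, the paired plus homeobox word ATTAGTCA, and a homeodomain dimer of the half-sites TAAT and ATTA set 2 bases apart. Capitals mark these motifs and the word GTCATG, which differs from the paired core in 1 base and was chosen after the words in excess at all summits had been seen. A match on the minus strand appears in the lines as its reverse complement. Distances are from the transcription start site (TSS) of the gene, called its start in the text. The first 5 sequences are the peaks that held 1 of the 3 Pax motifs.

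Bmp4, 40.4 kb upstream, chr14:47050661-47050761: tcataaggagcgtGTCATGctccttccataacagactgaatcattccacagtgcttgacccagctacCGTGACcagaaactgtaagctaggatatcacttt
Grem1, 2.78 kb upstream, chr2:113601536-113601636: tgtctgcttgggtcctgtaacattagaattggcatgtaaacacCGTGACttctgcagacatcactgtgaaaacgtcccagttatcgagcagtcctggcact
Grem1, 67.7 kb downstream of the TSS, Fmn1 intron, chr2:113531036-113531136: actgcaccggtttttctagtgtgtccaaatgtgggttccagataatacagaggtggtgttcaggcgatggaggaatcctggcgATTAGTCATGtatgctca
Bmp6, 49.0 kb upstream, chr13:38387918-38388018: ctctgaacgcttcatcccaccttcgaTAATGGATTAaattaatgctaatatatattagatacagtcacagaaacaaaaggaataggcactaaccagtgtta
Bmp7 window, Rbm38 exon, chr2:172847365-172847394: aaacgagaggggCGTGACcgcggggcgtgg

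The next pair, from introns of Bmp5 and Bmpr1a, held GTCATG without any of the 3 Pax motifs, and at Bmpr1a the word stood as a tandem pair under the summit.

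Bmp5, intron 5, chr9:75735128-75735228: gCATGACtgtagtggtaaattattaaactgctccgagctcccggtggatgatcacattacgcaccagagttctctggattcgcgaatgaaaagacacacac
Bmpr1a, intron 4, chr14:35253166-35253266: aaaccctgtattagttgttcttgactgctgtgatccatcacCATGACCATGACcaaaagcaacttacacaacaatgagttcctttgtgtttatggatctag

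The peaks with the highest fold enrichment at Bmp7, Nog, Smad6, Bmp2 and Bmp6 held none of these words and are shown for contrast. The Bmp7 site had the highest fold enrichment of all 33 peaks and the Nog site the next highest.

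Bmp7, intron 2, chr2:172735155-172735255: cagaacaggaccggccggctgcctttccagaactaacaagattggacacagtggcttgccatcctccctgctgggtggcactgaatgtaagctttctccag
Nog, 9.01 kb downstream of the TSS, chr11:89154816-89154916: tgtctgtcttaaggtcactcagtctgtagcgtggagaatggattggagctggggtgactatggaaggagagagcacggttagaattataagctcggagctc
Smad6, intron 3, chr9:63818884-63818984: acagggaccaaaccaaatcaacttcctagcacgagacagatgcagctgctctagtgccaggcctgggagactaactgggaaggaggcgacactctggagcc
Bmp2, 17.4 kb downstream of the TSS, chr2:133395239-133395339: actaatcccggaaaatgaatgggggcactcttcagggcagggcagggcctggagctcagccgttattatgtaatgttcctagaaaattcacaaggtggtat
Bmp6, intron 1, chr13:38525546-38525646: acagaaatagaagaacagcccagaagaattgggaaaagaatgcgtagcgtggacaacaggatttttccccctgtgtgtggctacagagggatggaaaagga

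Each of the 9 genes had at least 1 Pax7 summit in its window, against 75.2% of 22350 protein-coding genes under the same rule. At least 4 summits were found at 7 of the 9, whereas 29.8% of protein-coding genes had as many. The contrast depends on this cut, which equals the median of the 9 genes. At least 5 were found only at Bmp6 and Bmpr1a, and 19.4% of protein-coding genes had as many. Bmp6 and Bmpr1a had 5 each, Bmp2, Bmp7, Nog, Grem1 and Smad6 had 4 each, Bmp5 had 2 and Bmp4 had 1. The median was 4 per window at the 9 genes and 2 at all protein-coding genes, and the means were 3.67 and 2.61. Long genes have longer windows, and per Mb of window the median was 14.9 against 9.16. These are descriptions of 1 pooled list over 9 genes that are not replicates of each other, and no test was made of the difference.

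**Figure D1:**
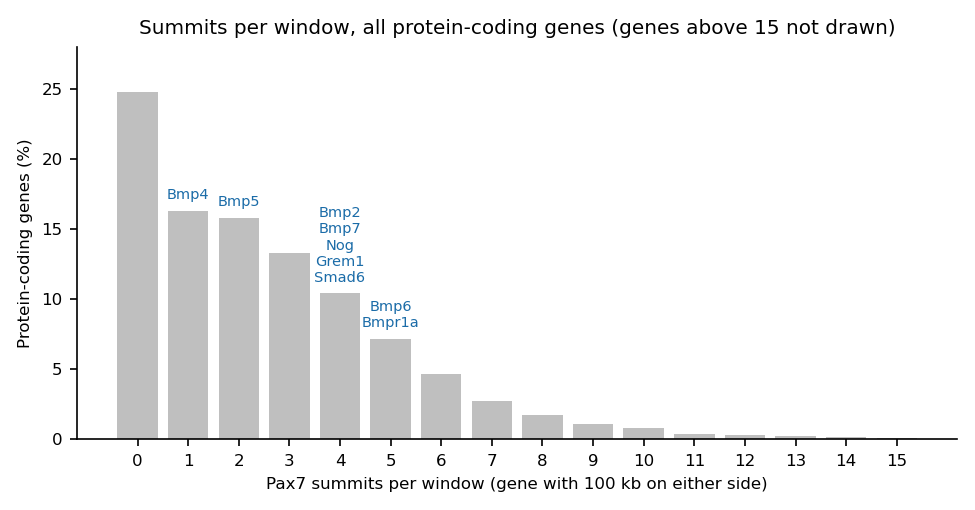
The bars give the percentage of protein-coding genes (vertical axis) with each number of Pax7 summits in the gene and 100 kb on either side (horizontal axis), and names mark where the 9 BMP genes fall. Bmp4 and Bmp5 sit at 1 and 2 summits, near the median of 2, and the other 7 genes at 4 or 5.

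The density per Mb ordered the genes differently from the count. Nog, with the shortest gene body, had 19.8 summits per Mb, a density reached by 16.3% of protein-coding genes. Bmp2 and Grem1 followed with 19.0 and 18.8 per Mb, reached by 19.6% and 20.2% of protein-coding genes. Bmpr1a had 17.1, Smad6 14.9, Bmp7 14.7 and Bmp6 14.1 per Mb, and between 24.0% and 32.7% of protein-coding genes reached these values. Bmp5 had 6.15 and Bmp4 4.83 per Mb, both below the median of all protein-coding genes. The members' windows held few other genes, with a median of 1 other coding gene start against 4 for all protein-coding genes. Among the 12656 protein-coding genes with at most 4 others in the window, a comparison added after the data had been seen, 29.1% had at least 4 summits. That set is not matched to the members, since its median was 2 other starts and Bmpr1a, with 6, lies outside it. An effect of gene-poor surroundings was not tested.

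The peaks at these genes were close in strength to those of the whole list. The median fold enrichment of the 33 was 5.23, with a range from 2.71 to 10.8, and the median of all peaks was 5.22. At least 5-fold enrichment was reached by 20 of the 33 (60.6%, 95% Wilson interval 43.7 to 75.3, counting error only), beside 54.9% of all peaks. At least 10-fold enrichment was reached by 3 of the 33 (9.09%, 3.14 to 23.6), beside 6.99% of all peaks. These 3 were the Bmp7 intron 2 site, the Nog downstream site and the Rbm38 site. The median −log10 q was 13.8 at the 33 peaks and 11.6 at all peaks, and the median width was 252 bp in both. By role, the median fold enrichment was 5.19 at the 16 ligand peaks, 4.64 at the 8 antagonist peaks, 5.89 at the 5 receptor peaks and 5.37 at the 4 Smad6 peaks, and the ranges of these groups overlapped.

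**Figure D2:**
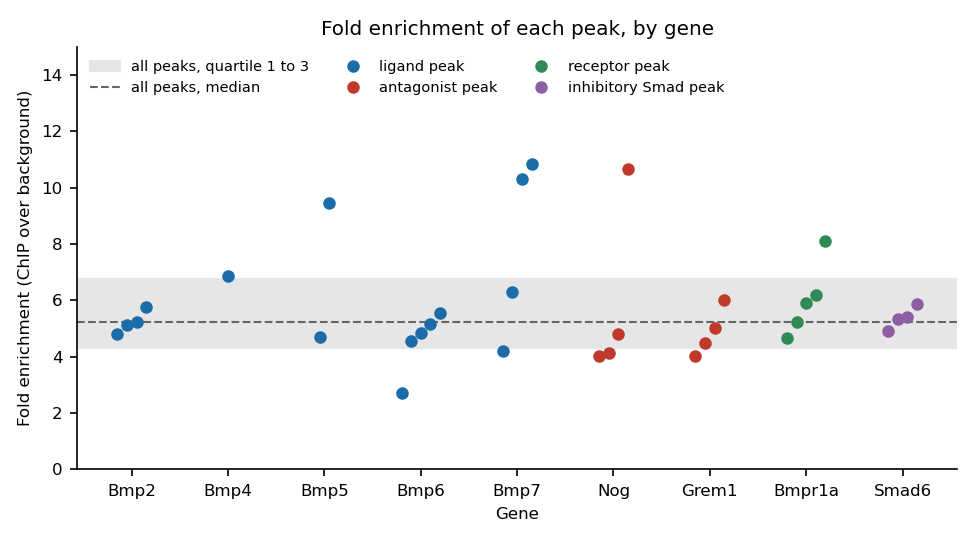
Each point is the fold enrichment (ChIP over background, vertical axis) of 1 Pax7 peak, by gene and coloured by role, with the dashed line at the median of all peaks and the grey band from their lower to their upper quartile. Single peaks at Bmp4 (6.85), Bmp5, Bmpr1a and Nog, and a pair at Bmp7, stand above the band, and the lowest point is the Bmp6 peak at 2.71.

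Among the ligands, Bmp7 had the strongest sites. Bmp7 is expressed in ectoderm, kidney and many other tissues and is needed for nephron formation. The gene (minus strand, chr2:172693513-172765822) had 4 peaks. That at chr2:172735048-172735425, in intron 2 of 6 and 30.6 kb downstream of the start of the gene, was enriched 10.8-fold, more than 95% of all Pax7 peaks, at a −log10 q of 52.4. Intron 1 held a close pair with summits 520 bp apart, at 5.75 and 6.26 kb from the start, of which the first had 4.19-fold and the other 6.28-fold enrichment. The 4.19-fold peak held the E-box CAGCTG, the word bound by Myod and related factors. The fourth peak in the window, 10.3-fold with a −log10 q of 38.7, lay 81.6 kb upstream of Bmp7 but 15 bp from an annotated start of Rbm38, which encodes an RNA-binding protein. It was the only one of the 33 summits within 1 kb of a protein-coding start, and it had the highest GC content (72.3%) and the most CpG dinucleotides (15 within 50 bp of the summit) of the 33, with the paired core centred 5.5 bp from its summit.

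Bmp5, a ligand of cartilage and soft tissue, had 1 site inside the gene and 1 beyond it. In the gene (plus strand, chr9:75623171-75748117), the peak chr9:75734986-75735369 in intron 5 of 6 was enriched 9.45-fold at a −log10 q of 36.2, above 91.3% of all peaks. It held the word GTCATG 46.5 bp from the summit, near the edge of the searched window, and 5 CpG dinucleotides. The other, 184 kb from the start, was enriched 4.70-fold in an intron of the long non-coding RNA gene Gm16662, nearer to the coding start of Hmgcll1 (55.2 kb) than to that of Bmp5. No summit lay upstream of Bmp5 within 100 kb.

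Bmp4, a ligand of the lateral plate and surface ectoderm, had a single peak. It lay 40.4 kb upstream of the gene (minus strand, chr14:47003195-47010344), between genes at chr14:47050605-47051002, and was enriched 6.85-fold at a −log10 q of 21.7, above 76.1% of all peaks. The paired core lay 19.5 bp from its summit, GTCATG 34.5 bp to the other side, and the word GGAATG, bound by Tead factors, 6.5 bp away. No other member peak held both the paired core and GTCATG. Bmp2, which is close to Bmp4 in sequence, had 4 peaks with fold enrichment from 4.80 to 5.76. They lay 86.9, 79.1 and 10.6 kb upstream and 17.4 kb downstream of the start of the gene (plus strand, chr2:133377895-133388621), and none was inside the gene. The farthest was in an intron of the processed transcript Gm14100 and the other 3 were intergenic. For all 4 the nearest protein-coding start was that of Bmp2.

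Bmp6, a ligand that controls hepcidin in the liver, had 5 peaks, the weakest of them the weakest of all 33. Upstream of the gene (plus strand, chr13:38436995-38592183) by 49.0 kb, the peak chr13:38387843-38388028 was enriched 2.71-fold at a −log10 q of 3.41, above only 0.491% of all peaks, and it was the only member peak with a homeodomain dimer, 19.5 bp from its summit. Intron 1 of 6 held 3 peaks, 88.6, 106 and 117 kb from the start, with 5.54-fold, 4.54-fold and 5.15-fold enrichment. The fifth, 4.84-fold, was beyond the end of the gene in an intron of the neighbouring gene Txndc5, 10.1 kb from its coding start. At 3 of the 5 peaks the nearest coding start was that of Txndc5.

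**Figure D3:**
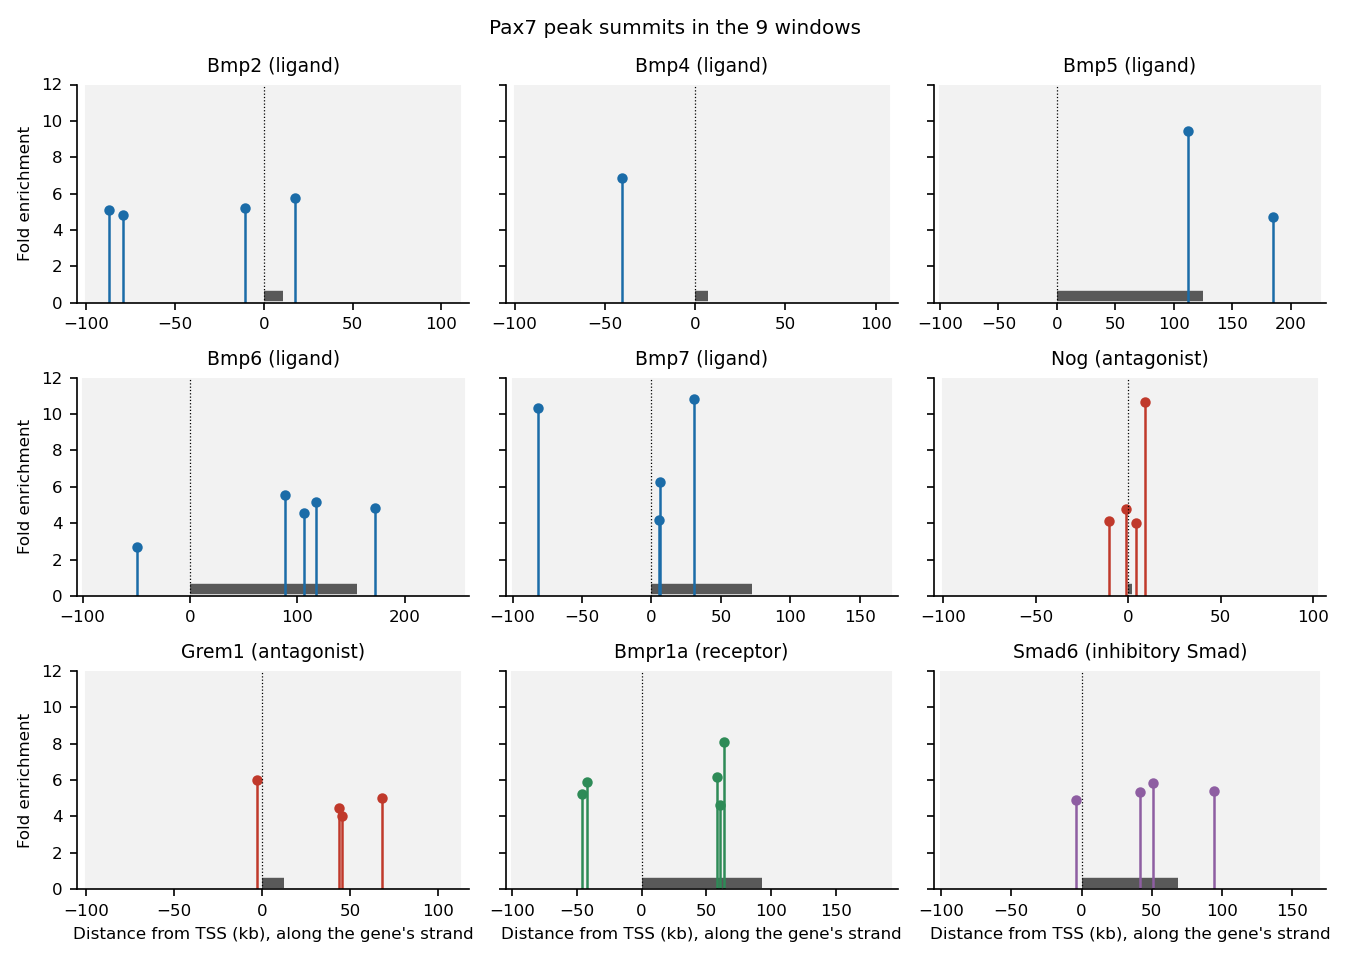
For each of the 9 genes, the vertical lines stand at Pax7 summits by distance from the start of the gene in kb (horizontal axis, positive along its strand), with their height as fold enrichment (vertical axis). The dark bar is the gene and the shaded span the window, and summits lay within the gene at Bmp5, Bmp6, Bmp7, Bmpr1a and Smad6 and outside it at Bmp2, Bmp4, Nog and Grem1.

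The 2 antagonists differed in the spread of their sites. Nog encodes Noggin, whose gene has a single exon (minus strand, chr11:89161952-89163873). Its 4 summits spanned 19.15 kb, against 70.5 kb for those of Grem1, and lay 10.1 and 1.08 kb upstream and 4.23 and 9.01 kb downstream of the start, with 4.13-fold, 4.80-fold, 4.01-fold and 10.7-fold enrichment. The strongest, chr11:89154705-89155087, was intergenic beyond the end of the gene, with a −log10 q of 45.9 and a fold enrichment above 94.6% of all peaks. The summit 1.08 kb upstream was the nearest of all 33 to its own gene's start and lay 913 bp from a start of the overlapping processed transcript Gm2018. None of the 4 held any of the 3 Pax motifs, GTCATG or an E-box.

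Grem1 encodes Gremlin, a cystine-knot antagonist of Bmp2, Bmp4 and Bmp7 (minus strand, chr2:113586321-113598803). The peak chr2:113601457-113601692, 2.78 kb upstream and intergenic, was enriched 5.997-fold at a −log10 q of 19.1, with the paired core 4.5 bp from its summit. The other 3 summits, 43.7, 45.1 and 67.7 kb downstream of the start, lay in the neighbouring gene Fmn1, which is on the plus strand and whose body is known to hold regulatory elements of Grem1 in the limb. Of these, a pair 1382 bp apart fell in a non-coding part of an Fmn1 exon, with 4.48-fold and 4.03-fold enrichment. The last, in an Fmn1 intron and enriched 5.01-fold, held the only paired plus homeobox word among the 33 peaks, 36.5 bp from the summit, running into GTCATG. For these 3 the nearest coding start was that of Fmn1, 2.81 to 26.8 kb away.

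Bmpr1a encodes a type I receptor of Bmp2 and Bmp4 (gene on the minus strand, chr14:35223920-35316527). A group of 3 peaks stood in introns 2, 3 and 4 of 10, with summits 58.1, 60.6 and 63.3 kb from the outermost start and 6.17-fold, 4.64-fold and 8.10-fold enrichment. Another annotated coding start of Bmpr1a was nearer to these summits, at 15.4, 17.8 and 20.5 kb. The strongest, chr14:35253071-35253326, had a −log10 q of 27.3 and lay above 85.4% of all peaks. Its tandem copies of GTCATG were centred 0.5 and 6.5 bp from the summit, and the 6.17-fold peak held the word as well, 34.5 bp from its summit. The 4.64-fold peak held 2 E-boxes CAGCTG, centred 42.5 bp to one side and 39.5 bp to the other side of its summit. A further pair of 5.23-fold and 5.89-fold lay 46.2 and 42.6 kb upstream of Bmpr1a, in introns of Ldb3, a gene of the Z-disc of striated muscle, and the stronger of them held the AP-1 word TGAGTCA 5.0 bp from its summit. All 5 had another Pax7 summit within 5 kb.

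Smad6, the inhibitory Smad, is itself a transcriptional target of BMP signalling in many cells. The 4 peaks of this gene (minus strand, chr9:63800953-63869866) were alike in strength, with 4.92-fold enrichment 3.94 kb upstream, 5.32-fold and 5.85-fold in intron 3 of 3, 41.6 and 50.9 kb from the start, and 5.42-fold 94.5 kb from the start beyond the gene. The 5.85-fold peak, chr9:63818799-63819115, reached a −log10 q of 23.2 and held an E-box 5.5 bp from its summit. The upstream peak held GTCATG 16.5 bp from its summit. The nearest coding start was that of Smad6 for all 4.

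Over all 33 peaks, sites within genes were the most frequent. Introns of any annotated gene held 18 of the 33 summits (54.5%, 38.0 to 70.2; all peaks 42.1%), intergenic sequence 11 (33.3%, 19.8 to 50.4; all peaks 39.0%), and exons 2 (6.06%, 1.68 to 19.6; all peaks 2.55%). Within 1 kb of an annotated start lay 2 (6.06%, 1.68 to 19.6), whereas 16.3% of all peaks did. Neither of these 2 was at the start of a member, since the starts were those of Rbm38 and Gm2018. By position relative to the member, 12 summits were upstream, 12 inside the gene and 9 downstream, with median fold enrichments of 5.17, 5.70 and 4.84. The nearest protein-coding start was that of the member for 23 of the 33 (69.7%, 52.7 to 82.6), and the other 10 were nearest to Fmn1 (3), Txndc5 (3), 9230112D13Rik (2), Rbm38 (1) and Hmgcll1 (1). The same share was not computed for the windows of other genes, so 69.7% is a description only. Another Pax7 summit lay within 5 kb of 11 of the 33 (33.3%, 19.8 to 50.4; all peaks 23.8%), and the median distance to the nearest other summit was 9301 bp against 19750 bp for all peaks. These 11 were the 5 peaks at Bmpr1a and a pair each at Bmp7, Nog and Grem1. The spacing is not independent of the counts per window. The whole list also held peaks up to 2413 kb from a coding start, against at most 112 kb at the 33. Each of these intervals with a value of all peaks beside it holds that value.

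The share of peaks with a Pax motif was near that of the whole list. At least 1 of the 3 motifs lay within 50 bp of the summit at 5 of the 33 (15.2%, 6.65 to 30.9), beside 14.5% of all peaks. The paired core was present at 3 (Bmp4, Grem1 and Rbm38; 9.09%, all peaks 11.1%), and the paired plus homeobox word and the homeodomain dimer at 1 each (3.03%; all peaks 2.94% and 0.831%). In windows of the same width 500 bp to the left and right of all summits, the paired core was found in 1.24% and 1.31%. The fold enrichment of the 5 peaks with a Pax motif ran from 2.71 to 10.3 and so spanned nearly the whole range of the members. The word GTCATG was present at 9 of the 33 (27.3%, 15.1 to 44.2), beside 13.7% of all peaks and 3.72% and 3.85% of their flanks. It was found at Bmp4, both Bmp5 peaks, 1 Bmp6 peak, 1 Grem1 peak, 3 Bmpr1a peaks and 1 Smad6 peak, and any of the 3 motifs or GTCATG at 12 of the 33 (36.4%, 22.2 to 53.4; all peaks 26.4%). In the left and right flanks of the 33 peaks themselves, GTCATG was found at 1 and 3. The word was searched after the data had been seen, and no test was made.

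**Figure D4:**
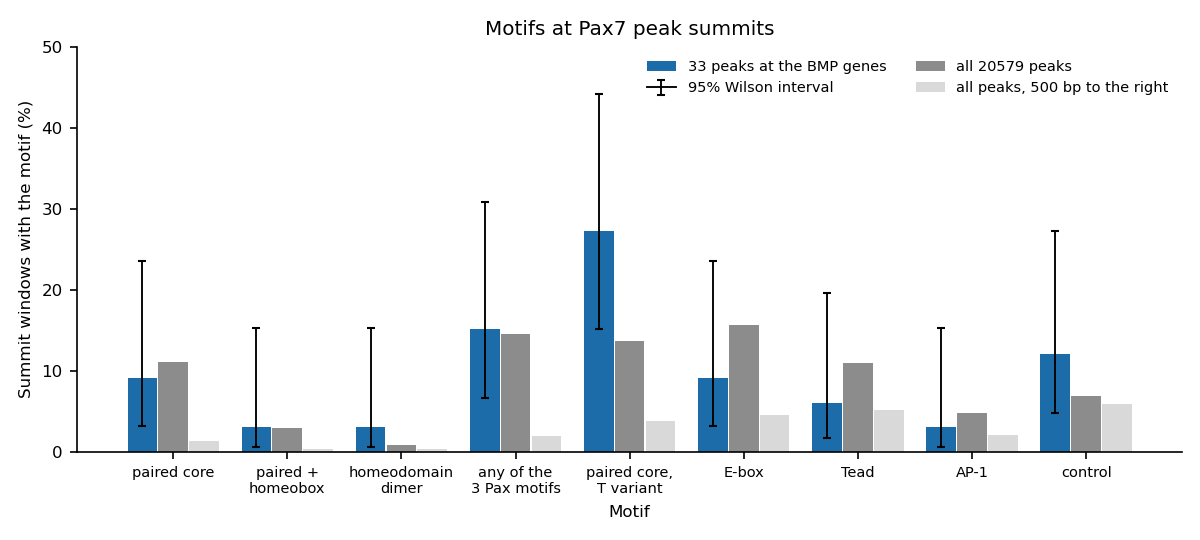
Bars give the percentage of windows (50 bp on either side of the summit) holding each motif (vertical axis; horizontal axis, motif) at the 33 peaks with 95% Wilson intervals, at all Pax7 peaks, and 500 bp to the right of all summits. Their intervals hold the value of all peaks for every motif except the T variant of the paired core, GTCATG, where 27.3% stands above 13.7% with a lower bound of 15.1. This word was chosen after the data had been seen, so the interval is a description only. The interval also treats peaks as independent, although those with the word include several at Bmpr1a and both at Bmp5.

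Words of other factors were present at few of the peaks. The E-box CAGCTG was present at 3 of the 33 (9.09%, 3.14 to 23.6; Bmp7, Bmpr1a and Smad6), beside 15.7% of all peaks. The Tead word was present at 2 (6.06%; all peaks 11.0%), the Runx word TGTGGT at 1, in the Fmn1 exon near Grem1 (3.03%; all peaks 9.73%), and the AP-1 word at 1 (3.03%; all peaks 4.78%). The GC-rich Smad word GGCGCC was found at 0 of the 33, which allows a share of up to 10.4% (Wilson), and at 1.31% of all peaks. The unrelated word GCACTG, searched as a control, was present at 4 (12.1%, 4.82 to 27.3), beside 6.86% of all peaks, so that a few counts over 33 windows move these shares widely. Of the remaining words, CATATG was present at 1 (Bmp5; 3.03%, all peaks 1.58%), GTCTAGAC at 0 (all peaks 0.0923%), and, of those chosen after the data had been seen, GTCACA at 4 (12.1%; all peaks 13.8%), AATTAG at 2 (6.06%; 12.6%) and TTCACG at 1 (3.03%; 5.14%). A word in the window is a description of the letters there and not of a bound factor.

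Because only uniquely mapped reads had been kept, the copies of each summit sequence in mm9 were counted. Of the 81 words of 21 bases in each window, all occurred once in the genome at 24 of the 33 peaks. The same count was not made for the whole list of peaks. The Bmpr1a intron 4 peak had 71 of 81 words at a single place and 1 word at 100 places, the Bmpr1a intron 3 peak had 68 of 81 at a single place, and the median over words was 1 at every member peak.

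The rule cut off sites just outside the windows. The nearest summit beyond an edge was 3.82 kb out at Bmp2 (8.85-fold), 6.75 kb out at Grem1 (7.32-fold) and 16.2 kb out at Bmp4 (18.5-fold). Inside these windows, the summit nearest to either edge, which need not be the same edge, had 5.12-fold enrichment at Bmp2 (13.1 kb in), 5.01-fold at Grem1 (44.8 kb in) and 6.85-fold at Bmp4 (59.6 kb in). At Bmpr1a the next summit was 573 kb beyond the edge, and at the other 5 genes it was 42.5 to 74.6 kb out with 4.19-fold to 6.86-fold enrichment. The Bmp4 site, chr14:47126336-47126685, was intergenic and 116 kb upstream of the start, and the nearest protein-coding start was that of Bmp4. Its −log10 q was 96.6 and its fold enrichment ranked 70 among all 20579 peaks, above 99.7% of them. Its summit held none of the 3 Pax motifs. Capitals mark the homeobox word AATTAG, also chosen after the data had been seen.

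Bmp4, 116 kb upstream, chr14:47126481-47126581: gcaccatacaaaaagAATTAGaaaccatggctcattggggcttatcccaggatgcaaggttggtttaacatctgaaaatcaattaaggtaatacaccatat

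In that window 66 of the 81 words of 21 bases occurred once in mm9 and the most frequent occurred at 5 places.

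The rest of the pathway gave counts that differed by list under the same rule. Of 41 further BMP pathway genes, 36 (87.8%) had at least 1 summit and 18 had at least 4, beside 75.2% and 29.8% of all protein-coding genes. Their median was 3 per window and 11.3 per Mb, and their 145 peaks had a median fold enrichment of 5.06. Over the lists below, the median density ran from 7.29 per Mb at the other ligands to 19.8 at genes that respond to BMP. Only the other ligands fell below the 9.16 of all protein-coding genes. Of 10 other ligands, 6 (60.0%) had at least 1 summit, with a median of 1.5 per window. They were led by Bmp8a with 6, Gdf7 with 5 and Bmp3 with 4, and Bmp8b, Gdf2, Gdf3 and Gdf6 had none. Of 10 other receptors and co-receptors, 9 had at least 1, led by the co-receptors Rgmb with 12 and Rgma with 8, of which the strongest was 22.8-fold, followed by Eng and Hfe2 with 6 each, and Acvr2a had none. All 14 other antagonists and modulators had at least 1, led by Bmper with 11, Chrdl2 with 6 and Sostdc1 with 6. The 7 other Smads and Smad ubiquitin ligases all had at least 1, led by Smad7 with 7, Smurf2 with 5, and Smad4 and Smurf1 with 3 each, and Smad1, Smad5 and Smad9 had 2, 1 and 1. Among 8 genes that respond to BMP in many cells, 7 had at least 1, with Id3 at 6 and a maximum of 13.25-fold, Id4 and Atoh8 at 5, and none at Hey1. Of 18 activin and TGF-β genes, 17 had at least 1, with 8 each at Tgfb2 and Smad3, 6 at Mstn and 6 at Tgfb3, and none at Inhba. Windows of neighbouring genes in these lists can share peaks.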

How the data were processed

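Pax7 was mapped by ChIP-seq in 2 Pax7 ChIP and 2 Input libraries. The authors aligned reads to mm9, kept uniquely mapped reads, removed duplicates, pooled replicates and called peaks with MACS2, keeping those with q below 0.01. The deposited list gives, per peak, a score, a fold enrichment (a ratio of ChIP over local background), a −log10 p-value, a −log10 q-value and the summit position. It holds no read counts, so no depth or error of a single peak is given. The number of columns without a sample was 0.

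Summits were assigned to genes of GENCODE vM1 (build NCBIM37, mm9) with 100 kb on either side, and coordinates are 1-based. Distances run from the outermost annotated start of the gene. Summits were classed as within 1 kb of any annotated start, then exon, intron or intergenic. Motif searches covered either strand of the 50 bp on both sides of a summit, and of windows shifted by 500 bp. Shares have 95% Wilson intervals, which cover counting error only. No hypothesis test was made, since the list is pooled. All 9 genes are named with each of their peaks, and other pathway genes when among the 3 with the most summits of their list or without any, besides a few chosen after their values were seen. The members, lists and words were chosen with earlier results of these data known. Alternatives were windows of 50, 200 and 500 kb, stricter peak filters, merging of peaks within 500 bp, overlap instead of summit, motif windows of 25 and 100 bp, 5 kb from a start, and protein-coding starts only. Python 3.11.15, numpy 2.4.6, scipy 1.17.1, pysam 0.24.0 and matplotlib 3.10.9 were used, and scripts were tested on simulated data.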

Additional observations from a re-analysis of the deposited data

How the results depend on the processing

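The 33 summits became 28, 49 and 103 with windows of 50, 200 and 500 kb, 32 at a −log10 q of at least 5, 20 at a fold enrichment of at least 5, 32 after merging, and 33 with overlap. All 9 genes kept at least 1 summit under each of these alternatives, beside 62.1%, 84.6% and 92.7% of protein-coding genes at 50, 200 and 500 kb, 73.9% with the filter on q, 61.3% with that on fold enrichment and 75.2% after merging. Fewer genes had at least 4 summits under some of them. At 50 kb, Bmp2 had 2 and Bmp7 and Grem1 had 3 each. With the filter on fold enrichment, only Bmpr1a had 4, and after merging Bmp7 had 3. At 500 kb, each of the 9 had at least 5. No share of protein-coding genes with at least 4 is given for these settings, so whether that contrast holds there was not assessed. The median density at the 9 genes against all protein-coding genes was 19.6 against 8.47 per Mb at 50 kb, 12.4 against 9.64 at 200 kb and 10.4 against 9.86 at 500 kb. At 500 kb, Bmpr1a still had 5 summits and Smad6 had 18. The share of the 33 near a start was 27.3% at 5 kb, against 6.06% at 1 kb, and 3.03% for protein-coding starts. No share of all peaks is given for the 5 kb and protein-coding settings, so the shares there cannot be set against the whole list. With outermost starts only, the member's was the nearest for 26 of 33. The share with a Pax motif was 12.1% (all peaks 9.35%) within 25 bp and 15.2% (18.6%) within 100 bp. The median fold enrichment stayed between 5.18 and 5.32.

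No paired analysis was possible because the peaks were called on pooled libraries, and leaving out a replicate could not be computed. Fold enrichments cannot be given an error, peaks at the weak end depend on the q-value cut-off, and absence of a peak says only that none passed it at the depth of these libraries. A window of 100 kb does not tie a peak to a gene's expression, which was not analysed here.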
